A study of Mus musculus with 9 samples.

Results

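The libraries titled Cdx2het_Bcathet were compared with the control libraries of the same study, across all genes with at least 1 FPKM (a fragment count divided by transcript length and library size) in at least 3 of the 6 libraries. The 6 libraries, of 9 in the series, were chosen by title: 3 Cdx2het_Bcathet and 3 control libraries, with 1 library of each group at day 8, day 9 and day 10. RNA came from crypt epithelium of the mouse intestine after 1 allele of Ctnnb1, which encodes β-catenin, had been made a gain-of-function mutant, per the design text. The titles add heterozygosity for Cdx2 to this set, whereas its library names carry EXON3 without CDX2HET, and the other mutant set, titled Bcathet, carries CDX2HET and EXON3 in its library names. Which set held the Cdx2 allele therefore cannot be told from the labels, and the set is called here by its title. The promoter driving recombination, the inducing agent, the age and strain of the mice, and what the controls carried or received are not given in the sources used. Whether each library came from its own animal is not stated either. A p-value here measures spread between libraries, which within a group differ in day and may in part be technical. In the set, the day-9 library also differed from the other libraries in sex-linked RNA, as described below.

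β-catenin carries the WNT signal from the cell surface into the nucleus, where it joins TCF and LEF factors on the DNA of target genes. In the intestinal crypt this signal maintains stem cells at the base and the neighbouring Paneth cells, which secrete lysozyme and defensins. CDX2 is the transcription factor that sets intestinal identity along the gut.

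Of 24930 gene symbols in the table, 11845 passed the filter. Among these, 76 passed the test against control (0.642%, limma, Benjamini-Hochberg adjusted p under 0.05), 47 higher (0.397%) and 29 lower (0.245%) in the Cdx2het_Bcathet set. With Cdx2het_Bcathet against control rescaled to equal totals, the split was 49 higher and 16 lower. In all 76 the 3 libraries of one group lay beyond the 3 of the other. Over all tested genes, the set lay above control without overlap in 1139 (9.62%) and below it in 1510 (12.7%). The median log2 change was 0.91 among the genes that rose and −0.98 among those that fell, against −0.00 over all genes tested. Of the 76, 8 passed the filter on low values only through the set and 2 only through the controls, so those 10 had to differ. The day-9 library of the set lay apart from the other 2, and the count of passing genes rose to 468 (3.95%; 297 higher, 171 lower) when it was left out, the 76 among them. Leaving out another library of the 2 groups lowered the count to between 20 and 27.

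The 6 libraries had 624923 to 755802 summed FPKM and 11601 to 11982 genes at 1 FPKM or more. As a rough estimate, each FPKM stood for 16.7 to 19 fragments per kilobase of transcript. The estimate took small values of single-transcript genes, within a range set beforehand, to be 1 fragment each. That range shapes the result, and the transcript lengths came from another annotation (GENCODE M21). All 11 epithelial markers, among them Epcam at 703 to 772 FPKM, were present in every library, and their sum ran from 7484 to 8367 FPKM in control and from 7840 to 8941 in the set. Markers of other cells were read as well. The 16 fibroblast markers summed to 184 to 188 FPKM in control and 164 to 196 in the set. Only 2 of the 16 passed the filter, and 1 to 6 of them were at 0 in each library. The 10 endothelial markers summed to 3.70 to 4.60 FPKM in control and 5.76 to 8.43 in the set, with 1 to 3 of them at 0. The 11 macrophage markers summed to 17.2 to 23.3 and 26.1 to 37.5 FPKM, and the 5 red blood cell markers to 3.89 to 7.04 and 1.57 to 13.0.

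The genes named by the labels were read first. Ctnnb1 was at 207, 193 and 187 FPKM in the controls of day 8, 9 and 10 and at 223, 235 and 239 in the set. The groups did not overlap, but the difference of 0.25 ± 0.08 on the log2(FPKM + 1) scale (± SE, here and for the log2 values that follow) missed the threshold (adjusted p = 0.173, limma). Cdx2 was at 139, 114 and 108 FPKM in control and 188, 178 and 196 in the set. It rose 1.55-fold, by 0.64 ± 0.10 on the log2 scale (adjusted p = 0.0431, limma), and passed in 2 of the 9 fits that each left out 1 library of the 9. For each of these 2 genes the two-sided exact permutation test gave p = 0.1, the smallest that 3 libraries against 3 allow. Gene-level values of Ctnnb1 and Cdx2 do not show which allele gave the RNA.

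**Figure D1:**
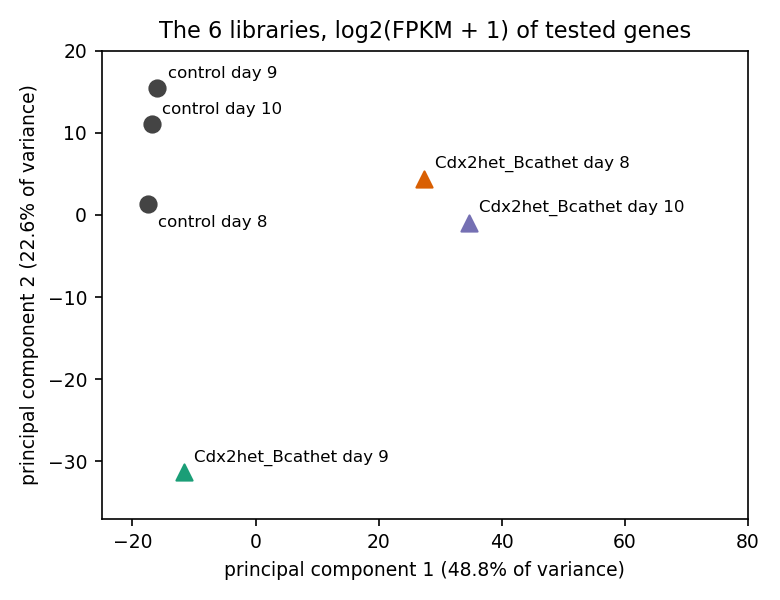
Positions of the 6 libraries on the first 2 principal components of log2(FPKM + 1) over the tested genes, with the share of variance on each axis (circles, control; triangles, Cdx2het_Bcathet). Day 8 and day 10 of the set lie at 27.39 and 34.65 on the first component, and day 9 lies at −11.69, nearer the controls, but at −31.31 on the second.

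The day-9 library of the set resembled neither the controls nor the other 2 libraries of the set. The first principal component held 48.8% of the variance, with the controls at −17.53 to −15.95, day 8 and day 10 at 27.39 and 34.65, and day 9 at −11.69. On the second (22.6%) day 9 stood alone at −31.31, with the other 5 libraries at −0.92 to 15.42. Along the line from the control mean to the mean of day 8 and day 10, which by construction average 100%, day 9 lay at 24.2%. Xist, the RNA of the inactive X chromosome, was at 38.2 to 39.4 FPKM in control, 32.0 and 27.3 at day 8 and day 10, and 0.1 at day 9. The sum of 4 Y-linked genes was 41.7 FPKM at day 9 and at most 0.047 in the other 5. Xist and the Y-linked genes thus separated this library, with the male pattern, from the other 5, with the female one. Day 9 of the set therefore came from another animal than its day 8 and day 10. The part of sex in the other differences was not tested.

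Genes that rose are described by role, starting with the crypt base. Igfbp4, a secreted binder of insulin-like growth factors found in crypt stem cells, was at 20, 21.9 and 29.1 FPKM in control and 88.3, 154 and 83.8 in the set. All 3 mutant libraries were above every control, with day 9 the highest, and the mean was 4.59-fold higher (log2 change 2.11 ± 0.27, adjusted p = 0.0194, limma). Gkn3, a gastrokine that also marks crypt base stem cells, was at 17.7, 15.1 and 17.4 FPKM in control and 46.2, 66.9 and 60.6 in the set. It rose 3.46-fold (log2 change 1.72 ± 0.18, adjusted p = 0.0083). Both are on the list of 22 crypt base stem cell markers, of which 20 were tested. None of the 20 fell, these 2 rose, and the list median was 0.20. Gkn3 is also on the list of 19 gastric epithelium genes, and it was the only 1 of the 5 tested there to pass. Of those 5, 4 had a positive difference and 1 a negative one, with a median of 1.37. The 18 gastric genes in the table, Gkn3 included, summed to 22.5 to 29.9 FPKM in control. In the set they summed to 62.5, 115 and 88.3 FPKM at day 8, 9 and 10.

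The other 18 tested stem cell markers did not pass. Lgr5, the R-spondin receptor that defines these cells, was at 11, 9.48 and 11.4 FPKM in control and 20.1, 32.7 and 18.1 in the set. The groups did not overlap (log2 difference 1.04 ± 0.34, adjusted p = 0.196). Olfm4, a secreted glycoprotein of crypt base cells, overlapped between groups, at 964, 1139 and 1091 FPKM in control and 754, 1202 and 724 in the set. Day 9 was the highest of the 6 libraries in 19 of the 20 tested stem cell markers (95%), against 17.3% of all tested genes. The median difference from the control mean over the list was 0.11, 0.57 and −0.01 at day 8, 9 and 10.

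Most WNT targets were also highest at day 9. None of the 18 tested of 24 listed passed in either direction with all libraries, and the list median was 0.49. Without overlap, 9 lay above control and 2 below, against 9.62% and 12.7% of all tested genes. Axin2, a scaffold of the complex that degrades β-catenin, was at 41.0, 38.0 and 34.2 FPKM in control and 47.9, 78.1 and 42.7 in the set. Every mutant library was above every control, and day 9 was the highest by far (log2 difference 0.52 ± 0.23, adjusted p = 0.309). Nkd1, an inhibitor of Dishevelled, was at 1.88 to 2.26 FPKM in control and 10.9, 27.5 and 5.86 in the set. Notum, a secreted enzyme that inactivates WNT ligands, was at 0.0802 to 0.22 FPKM in control and 2.46, 12.5 and 1.57 in the set. Each had its groups apart and its peak at day 9, and neither passed (adjusted p = 0.147 and 0.139). Rnf43, a ligase that removes Frizzled receptors, reached 51.5 FPKM at day 9, against 28.3 and 27.8 at day 8 and 10 and 21.0 to 23.5 in control. Sp5, a transcription factor induced by WNT, was at 8.43 to 14.1 FPKM in control and 18.5, 36.0 and 17.6 in the set. Myc, a driver of growth, differed little, at 54.2 to 63.2 FPKM in control and 63.8, 56.0 and 61.1 in the set. Day 9 was the highest library in 14 of the 18 (77.8%). Axin2, Lgr5, Ascl2, Cd44, Tnfrsf19, Znrf3 and Rnf43 are on the stem cell list as well, and all were highest at day 9. This count and that of the stem cell markers are therefore not independent. Without day 9, 2 members passed, Notum (log2 change 1.38, adjusted p = 0.0184) and Prox1 (0.99, adjusted p = 0.037), a homeobox factor that went from 0.471 to 0.534 FPKM in control to 2.37 and 1.66 at day 8 and 10. Notum and Prox1 passed the filter on low values only through the set, so a difference in them was given by the filter. Both are among the 9 above control without overlap, and for them that too was given by the filter.

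**Figure D2:**
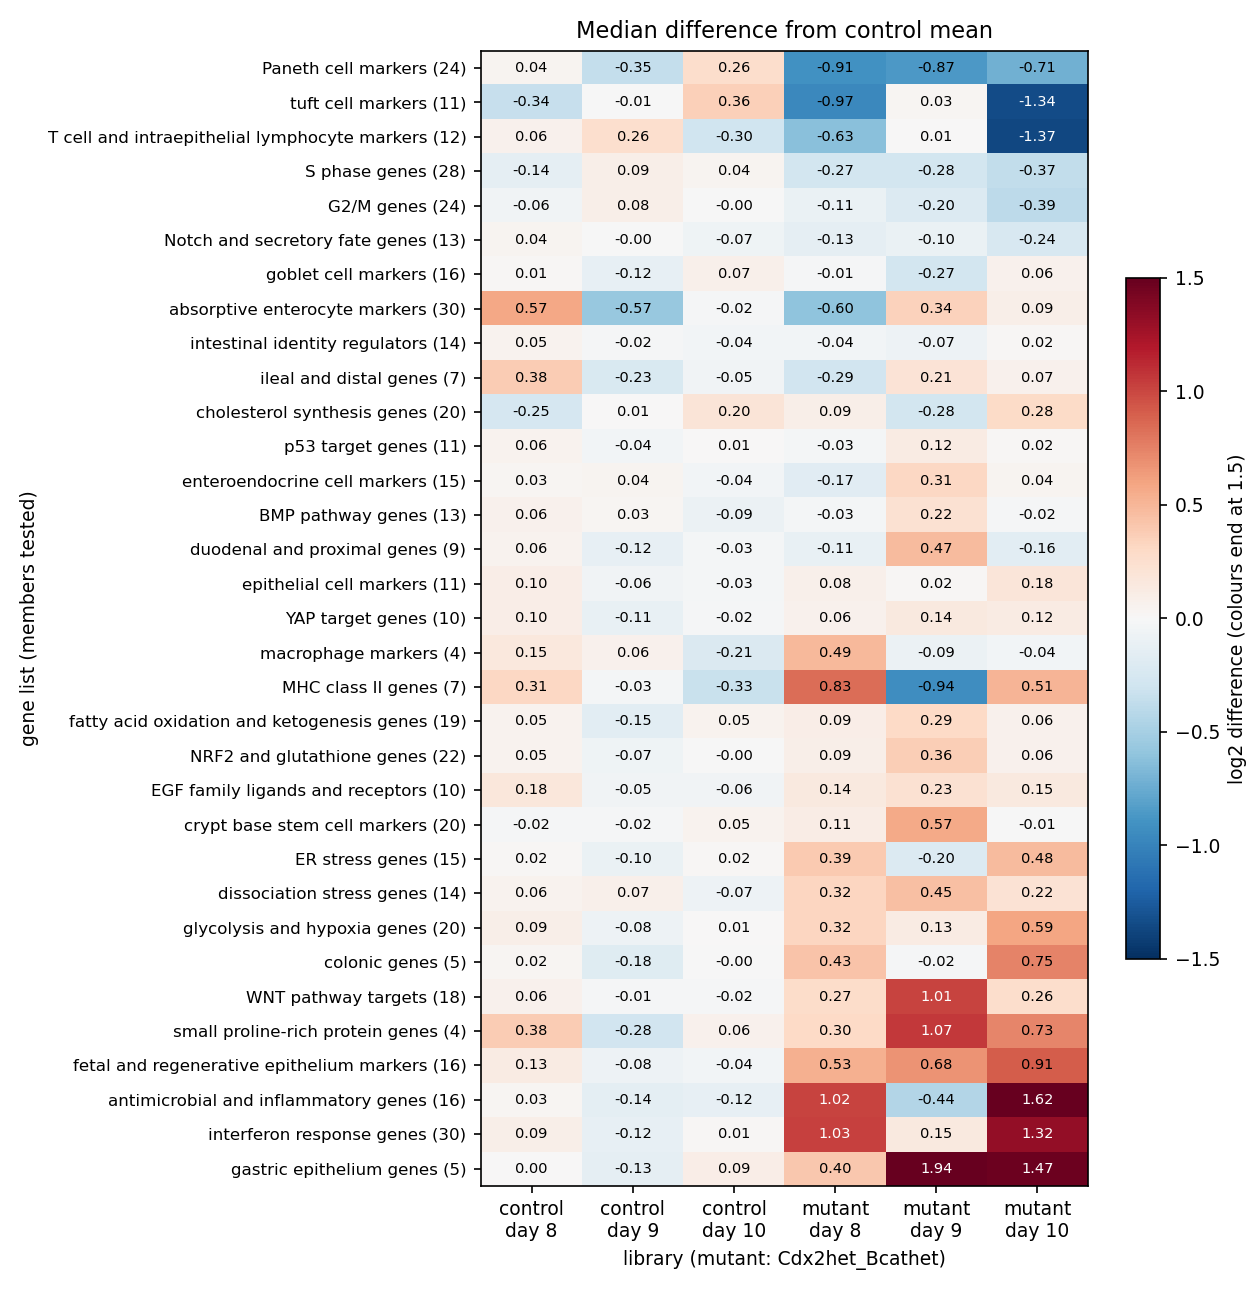
Median log2(FPKM + 1) difference from the control mean over the tested members of each gene list (rows, with the number of members tested) in the 3 control and 3 Cdx2het_Bcathet libraries (columns, labelled mutant). WNT pathway targets are at 0.27, 1.01 and 0.26 at day 8, 9 and 10 of the set, while interferon response genes are at 1.03, 0.15 and 1.32.

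Of 27 listed markers of fetal and regenerating epithelium, 16 were tested, 3 rose and none fell. A positive difference was found in 15, with a list median of 0.63. Krt7, a simple-epithelial keratin, was at 87.8, 92.7 and 84.4 FPKM in control and 132, 135 and 138 in the set. Its groups were narrow and well apart (log2 change 0.61 ± 0.08, adjusted p = 0.0159). Marcksl1, an actin-binding protein, was at 18.8, 16.7 and 18.4 FPKM in control and 39.7, 43.4 and 40.2 in the set. It rose 2.29-fold (log2 change 1.15 ± 0.17, adjusted p = 0.0272). Plaur, the receptor for urokinase, was at 0.537 to 1.11 FPKM in control and 2.26 to 2.54 in the set (log2 change 0.91 ± 0.13, adjusted p = 0.0232).

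Other members of this list differed between days. Clu, which encodes clusterin and marks revival stem cells, was at 0.925, 1.13 and 0.768 FPKM in control and 14, 22.0 and 8.6 in the set. All 3 mutant libraries were higher, but the spread was wide, and Clu missed the threshold with a log2 difference of 2.94 ± 0.53 (adjusted p = 0.0595). Ly6a, the cell-surface protein Sca-1, was at 3.36, 3.07 and 3.70 FPKM in control and 77.8, 3.06 and 111 in the set. Day 9 lay just under the lowest control, and Ly6a passed only without it (log2 change 4.43, adjusted p = 0.0151, against 2.92 ± 1.16 and 0.268 with it). Ly6a is also among the genes picked because day 8 and day 10 lay far beyond control and day 9 did not. Its pass without day 9 therefore restates that pattern and adds no support to it. Ccnd2, a D-type cyclin on the same list, was lower, at 72.2 to 75.1 FPKM in control and 18.8, 54.5 and 16.1 in the set. It too passed only without day 9 (log2 change −2.02, adjusted p = 0.00351).

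Enzymes of detoxification, lipid and cofactor metabolism were also among the genes that rose. Akr1b8, an aldo-keto reductase, was at 8.56, 6.29 and 5.51 FPKM in control and 37.9, 29.5 and 29.1 in the set. It rose 4.74-fold (log2 change 2.10 ± 0.21, adjusted p = 0.00792, limma) and passed in all 9 leave-one-out fits. Gsta3, a glutathione transferase, went from 1.44 to 1.72 FPKM in control to 8.11 to 10.4 in the set (log2 change 1.99 ± 0.23, adjusted p = 0.0131). These were the 2 that rose among 22 tested NRF2 and glutathione genes, whose median was 0.12. Pla2g5, a secreted phospholipase A2, was at 29, 21.9 and 25.5 FPKM in control and 76.7, 64.6 and 61.8 in the set. It rose 2.66-fold with no overlap (log2 change 1.38 ± 0.12, adjusted p = 0.00458). Lpcat4, which reacylates lysophospholipids, rose from 6.45 to 7.46 FPKM in control to 12.7 to 15.7 (log2 change 0.88 ± 0.12, adjusted p = 0.0204). Gch1, the first enzyme of tetrahydrobiopterin synthesis, rose from 5.10 to 5.99 FPKM to 10.5 to 14.8 (0.99 ± 0.17, adjusted p = 0.0475). Hs3st1, a heparan sulfate sulfotransferase, rose from 7.37 to 9.85 FPKM to 17.3 to 19.0 (1.00 ± 0.11, adjusted p = 0.0113).

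Secreted, signalling and surface genes made up the rest of the named rises. Sprr2a3, a small proline-rich protein, was at 27.6, 29.7 and 43.3 FPKM in control and 108, 148 and 174 in the set, 4.28-fold higher (log2 change 2.07 ± 0.24, adjusted p = 0.0139). Sprr2a copies are near-identical, so how fragments were shared between them is uncertain. Ccl9, a chemokine, was at 17.5, 16.4 and 18.1 FPKM in control and 44.3, 33.1 and 43.3 in the set (log2 change 1.16 ± 0.18, adjusted p = 0.0308), and it was the only 1 of 16 tested goblet cell markers to pass. Id1, an inhibitor of basic helix-loop-helix factors and a target of BMP signals, was at 88.9, 79.9 and 67.1 FPKM in control and 137, 136 and 149 in the set. It rose 1.79-fold (log2 change 0.84 ± 0.13, adjusted p = 0.0272), the only 1 of 13 tested BMP pathway genes to do so. Ifitm3, an antiviral membrane protein, was at 209, 274 and 264 FPKM in control and 626, 411 and 523 in the set. Its log2 change was 1.05 ± 0.16 (adjusted p = 0.028), and it passed in 1 of the 9 leave-one-out fits. Junb and Ier3, immediate early genes that cell dissociation also induces, rose by 0.81 ± 0.11 (adjusted p = 0.0207) and 0.70 ± 0.12 (adjusted p = 0.0441), 2 of 14 tested genes of that list. Junb passed in 4 and Ier3 in 1 of the 9 leave-one-out fits. The median of the dissociation list was 0.37, and the part of tissue handling in the other rises was not tested.

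Some of the steepest rises were of genes near 0 in control, named here after their values were seen. Esr1, the estrogen receptor α, was at 0.0260, 0.0323 and 0.198 FPKM in control and 5.45, 5.72 and 11 in the set (log2 change with the pseudocount 2.89 ± 0.35, adjusted p = 0.017). C3, the central complement protein, was at 0.422 to 0.630 FPKM in control and 6.45 to 8.03 in the set (log2 change 2.48 ± 0.22, adjusted p = 0.00458). Serping1, the inhibitor of the first complement component, was at 0.127 to 0.214 FPKM in control and 2.14 to 4.14 in the set (1.80 ± 0.19, adjusted p = 0.00809). Day 9 was the lowest mutant library for both complement genes, yet stood far above control. Hdc, which makes histamine, was at 0.22 to 0.565 FPKM in control and at 3.31, 3.25 and 3.18 in the set (1.57 ± 0.14, adjusted p = 0.00458). Igfbp2, a relative of Igfbp4, was at 0.22 to 0.532 and 2.45 to 3.02 FPKM (1.45 ± 0.21, adjusted p = 0.0258). Esr1, C3, Serping1, Hdc and Igfbp2 were among the 8 that passed the filter only through the set, so a difference in them was given by the filter. The other 3 were Asb4, Hebp2 and Mdfi.

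**Figure D3:**
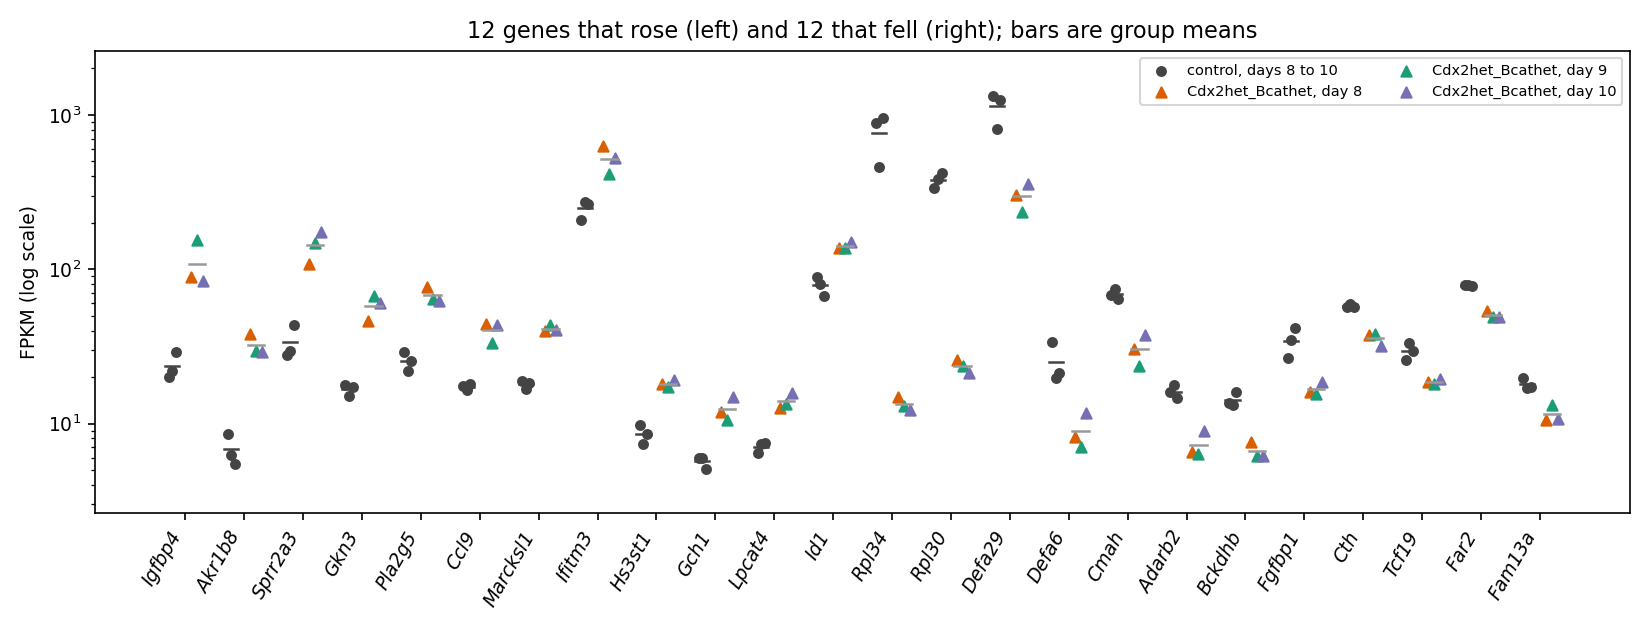
FPKM (log axis) of 12 genes that rose and 12 that fell in each of the 3 control libraries (circles) and 3 Cdx2het_Bcathet libraries (triangles, coloured by day), with bars at the group means. In every gene shown the 3 mutant points lie to one side of the 3 control points, also at day 9.

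The 2 steepest falls were of ribosomal protein genes and went with a rise of near-identical copies. Rpl34 was at 880, 461 and 957 FPKM in control and 14.8, 13.1 and 12.3 in the set (log2 change −5.67 ± 0.38, adjusted p = 0.00281). Rpl30 was at 335, 383 and 422 FPKM in control and 25.8, 23.4 and 21.4 in the set (−3.95 ± 0.12, adjusted p = 3.31e-06). Over the same libraries Gm12191 rose from 356, 384 and 420 to 785, 708 and 836 FPKM (1.00 ± 0.09, adjusted p = 0.00458). In the GENCODE M21 transcripts, Gm12191 matched Rpl30 at 99.7% of 348 bases and Rpl34-ps1 matched Rpl34 at 99.4% of 354. The windows around each differing base, in capitals, are given to show how little sequence separates them. Positions are counted from 1 at the 5′ end of the reference transcript of Rpl34 for T358C and C544G and of Rpl30 for G584A, with the gene's base first and the copy's last.
Rpl34 T358C: aaagcacctaaatcTgcatgtggcgtgtg
Rpl34-ps1 T358C: aaagcacctaaatcCgcatgtggcgtgtg
Rpl34 C544G: atcgttgtgaaagtCttgaaggcacaagc
Rpl34-ps1 C544G: atcgttgtgaaagtGttgaaggcacaagc
Rpl30 G584A: gtgctgggctacaaGcagactctgaagat
Gm12191 G584A: gtgctgggctacaaAcagactctgaagat

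With gene and copy added, the groups overlapped. Rpl30 plus Gm12191 summed to 691, 767 and 841 FPKM in control and 811, 731 and 858 in the set. Rpl34 plus Rpl34-ps1 summed to 882, 966 and 961 FPKM in control and 1123, 941 and 1142 in the set. The control of day 9 had Rpl34-ps1 at 505 FPKM, against 1.92 and 4.09 in the other 2 controls and 928 to 1130 in the set. How fragments were divided between 2 nearly equal sequences was not tested, so the value of either one alone is uncertain.

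Of 24 Paneth cell genes, all tested, 2 fell and none rose. A negative difference was found in 19 and a positive one in 5, with a list median of −0.93. Of the 19, 14 lay below control without overlap, against 12.7% of all tested genes. Defa29, an α-defensin, was at 1334, 813 and 1256 FPKM in control and 304, 235 and 358 in the set. It fell to 0.263 of the control mean (log2 change −1.91 ± 0.25, adjusted p = 0.02). Defa6, another α-defensin, was at 33.8, 19.7 and 21.3 FPKM in control and 8.23, 7.06 and 11.6 in the set (−1.37 ± 0.23, adjusted p = 0.0481), and it passed in 1 of the 9 leave-one-out fits. Defensin genes are close copies of each other, so single values share the doubt on the division of fragments.

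The other Paneth cell genes on the list did not pass. Lyz1, lysozyme, was at 8820, 6449 and 8211 FPKM in control and 3834, 4252 and 4063 in the set. The groups were apart, with a log2 difference of −0.94 ± 0.23 (adjusted p = 0.123). Ang4, an antimicrobial ribonuclease, was at 2144, 3058 and 7238 FPKM in control and 925, 701 and 1007 in the set (−2.06 ± 0.48, adjusted p = 0.116). Mmp7, the protease that activates defensins, overlapped between groups, at 392, 297 and 473 FPKM in control and 548, 273 and 696 in the set. Summed over the 24 genes, Paneth markers ran from 77573 to 138436 FPKM in control and from 49091 to 60080 in the set. In bulk RNA, fewer Paneth cells and less of these RNAs per cell cannot be told apart. Pla2g2a, a secreted phospholipase on the same list, was at 132 and 93.7 FPKM in the controls of day 8 and 9 but 8269 in that of day 10, and at 5473, 7723 and 7731 in the set. That control lay above every mutant library, and Pla2g2a did not pass (adjusted p = 0.266).

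The other named falls included enzymes. Bckdhb, a subunit of the enzyme complex that degrades branched-chain amino acids, was at 13.6, 13.2 and 15.9 FPKM in control and 7.60, 6.18 and 6.12 in the set. It fell by 1.00 ± 0.10 on the log2 scale (adjusted p = 0.00806) and passed in all 9 leave-one-out fits. Cmah, which makes a form of sialic acid, was at 67.9, 74.1 and 64.2 FPKM in control and 30.5, 23.6 and 37.7 in the set (−1.17 ± 0.16, adjusted p = 0.0205). Cth, an enzyme of cysteine synthesis, fell from 57.1 to 59.2 FPKM to 31.7 to 38.2 (−0.68 ± 0.11, adjusted p = 0.0308). Far2, a fatty acyl-CoA reductase, fell from 77.7 to 78.7 FPKM to 48.7 to 53.8 (−0.63 ± 0.07, adjusted p = 0.0131). Fgfbp1, which releases fibroblast growth factors from the matrix, was at 26.7, 34.6 and 41.7 FPKM in control and 16.1, 15.6 and 18.5 in the set (−0.98 ± 0.14, adjusted p = 0.0258). Adarb2, of the RNA-editing enzyme family, was at 15.9, 17.7 and 14.7 FPKM in control and 6.55, 6.38 and 8.92 in the set (−1.05 ± 0.15, adjusted p = 0.0248). Fam13a fell from 17.0 to 19.8 FPKM to 10.5 to 13.2 (−0.62 ± 0.10, adjusted p = 0.0334), and passed in 1 of the 9 leave-one-out fits. Pcsk6, a protease that matures growth factors, was named after its values were seen. It was at 5.32, 6.95 and 5.45 FPKM in control and 0.394, 0.916 and 0.377 in the set, 10.5-fold lower. It passed the filter on low values only through the controls, so a difference in it was given by the filter.

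Of the cell-cycle genes 1 passed. Of 28 tested S phase genes none passed and 27 had a negative difference, with a median of −0.29. Of the 28, 26 lay below control without overlap, against 12.7% of all tested genes. Mcm6, a subunit of the replicative helicase, was at 57.4, 63.8 and 68.9 FPKM in control and 48.1, 54.9 and 45.8 in the set (log2 difference −0.35 ± 0.11, adjusted p = 0.173). All 24 G2/M genes had a negative difference, with a median of −0.21, and 1 fell. That gene, Ttk, the spindle checkpoint kinase, was at 9.12, 10.6 and 9.97 FPKM in control and 7.19, 6.45 and 6.29 in the set (−0.51 ± 0.08, adjusted p = 0.0399). Tcf19, a cell-cycle factor outside these lists, fell from 25.9 to 33.2 FPKM to 17.9 to 19.4 (−0.63 ± 0.09, adjusted p = 0.0258).

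Promoter sequences were searched for the letters bound by TCF and LEF factors, by CDX factors, by AP-1 and at antioxidant response elements, on both strands of the 300 bases around the first listed RefSeq start of each gene (GRCm38.p6). A start was listed for 38 genes that rose and 20 that fell. The TCF/LEF letters CTTTGAT were in 1 of the 38 (2.63%) and 2 of the 20 (10%), against 2.67% of tested genes and 3.72% of all promoters. The CDX letters CNATAAA were in 3 (7.89%) and 1 (5%), against 7.05% of tested genes and 11.3% of all. The AP-1 letters TGANTCA were in 3 (7.89%) and 0, against 4.9% and 7.93%. The antioxidant letters TGACNNNGC were in 6 (15.8%) and 4 (20%), against 15% and 12.5%. A match is a run of letters, not a bound site. The 3 passing genes with TCF/LEF letters were Hdc, which rose, and Cmah and Acsm3, which fell. Acsm3, an acyl-CoA synthetase, went from 4.74 to 5.10 FPKM in control to 2.90 to 3.11 in the set (log2 change −0.58 ± 0.07, adjusted p = 0.0173). Their RefSeq windows follow, 5′ to 3′ on the gene's strand, with the TCF/LEF letters in capitals and, in Hdc, the CDX letters TTTATGG in capitals too. Hdc is at chr2:126618679-126618928 on the minus strand and Cmah at chr13:24327154-24327403 on the plus strand, each the 250 bases before the start. The Acsm3 run holds 29 bases and lies after the start, at chr7:119760942-119760970 on the plus strand.
Hdc: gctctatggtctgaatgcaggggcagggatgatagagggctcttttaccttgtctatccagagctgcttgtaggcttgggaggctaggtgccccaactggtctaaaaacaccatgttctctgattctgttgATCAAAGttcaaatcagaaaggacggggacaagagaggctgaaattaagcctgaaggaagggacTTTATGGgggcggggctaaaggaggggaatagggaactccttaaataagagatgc
Cmah: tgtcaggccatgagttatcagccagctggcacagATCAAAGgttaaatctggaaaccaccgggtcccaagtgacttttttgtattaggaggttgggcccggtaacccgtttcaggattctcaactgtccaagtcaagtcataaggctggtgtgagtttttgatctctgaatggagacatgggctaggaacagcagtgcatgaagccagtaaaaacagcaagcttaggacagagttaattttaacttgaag
Acsm3: aactccgtccaCTTTGATccaccaccaac

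Day 8 and day 10 of the set shared a group of large differences that day 9 lacked. In 92 genes day 8 and day 10 were both at least 1 (log2) above every control, and day 9 was also at least 1 above in 24 of them (26.1%), above by less in 35, inside the control range in 16 and below it in 17. In 72 genes they were both at least 1 below every control, and day 9 also was in 13 (18.1%), below by less in 26, inside in 12 and above in 21. The other libraries shared more: given the other 2 mutant libraries, day 8 shared 24 of 26 high genes (92.3%) and 13 of 17 low genes (76.5%), and day 10 shared 24 of 28 (85.7%) and 13 of 19 (68.4%). These counts describe single libraries and carry no test.

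**Figure D4:**
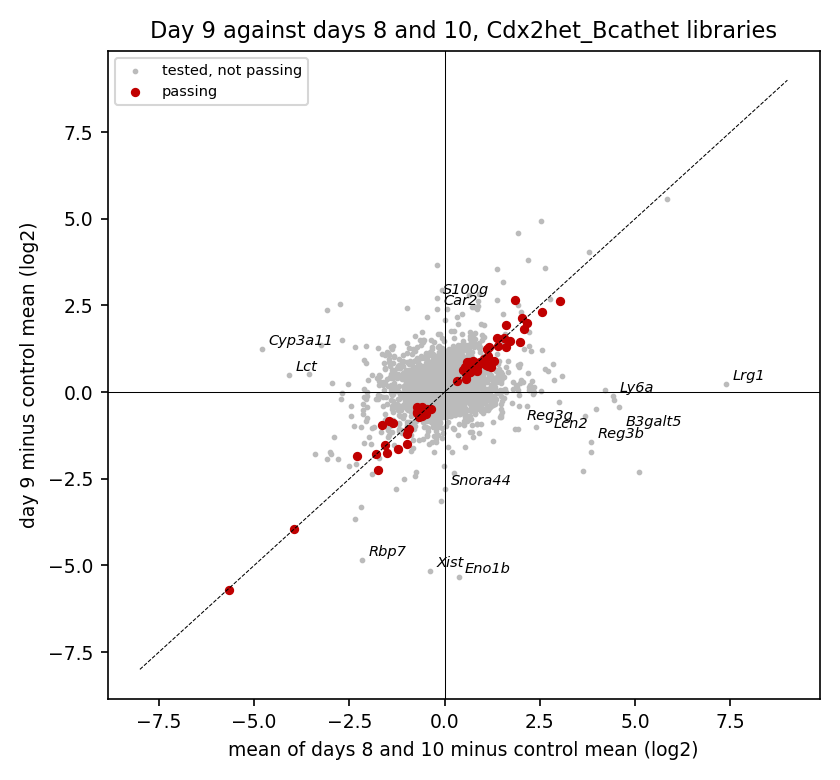
Log2(FPKM + 1) difference from the control mean at day 9 of the set (vertical) against the mean of day 8 and day 10 (horizontal) for each tested gene, with passing genes in red and the line of equal values dashed. The passing genes lie near the line, while Lrg1, Ly6a and B3galt5 lie far to the right near 0 on the vertical axis.

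Several of the genes that day 9 lacked act in defence. Lrg1, a secreted glycoprotein of inflammation, was at 0.754, 0.291 and 2.99 FPKM in control and 228, 1.43 and 536 in the set. Day 9 was inside the control range. Lcn2, the siderophore-binding lipocalin, was at 5.16, 5.22 and 8.22 FPKM in control and 88.9, 4.00 and 135 in the set. Reg3b, an antibacterial lectin, was at 3803, 1150 and 2322 FPKM in control and 25636, 802 and 37914 in the set, and Reg3g, its relative, at 2738, 1147 and 1586 and at 18042, 1058 and 26949. For Lcn2, Reg3b and Reg3g day 9 lay below every control. B3galt5, a galactosyltransferase, was at 9.20, 3.06 and 2.76 FPKM in control and 122, 2.97 and 134 in the set. These 5 were chosen for this pattern, so their values are a description with no test. Of 16 tested antimicrobial and inflammatory genes none passed with day 9. Without it 5 rose, against 2.51% of all tested genes. Lcn2, Reg3b and Reg3g are among those that rose, so for them this count repeats the pattern they were chosen for. Day 9 was the lowest library in 8 of the 16 (50%), Lcn2, Reg3b and Reg3g again among them, against 21.5% of all genes.

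**Figure D5:**
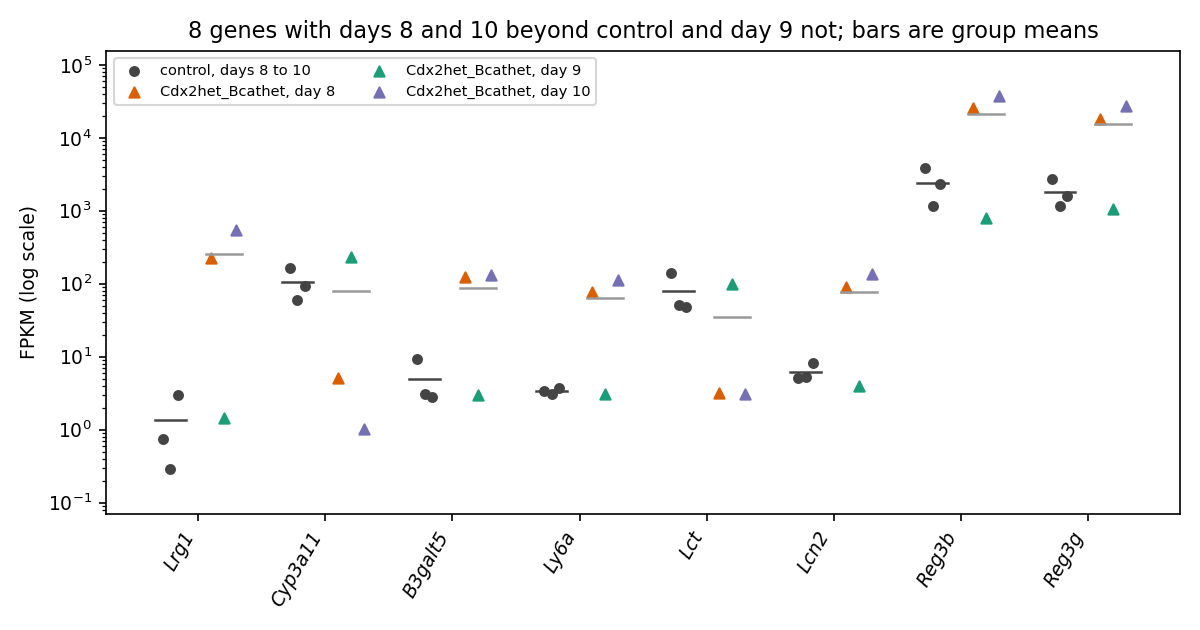
FPKM (log axis) of 8 genes whose day-8 and day-10 libraries of the set lie at least 2 (log2) beyond every control while day 9 does not (circles, control; triangles, Cdx2het_Bcathet by day; bars, group means). Day 9 of Lrg1, at 1.43 FPKM, lies among the controls, with day 8 and day 10 at 228 and 536.

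Of 37 listed interferon response genes 30 were tested. All 30 had a positive difference, with a median of 0.82. Against 9.62% of all tested genes, 13 of the 30 lay above control without overlap, day 9 included. Oasl1, an interferon-induced relative of the oligoadenylate synthetases, was one of these, at 25.3, 14.8 and 22.7 FPKM in control and 32.1, 30.1 and 52.5 in the set. In 13 of the 30, day 9 lay inside the control range. None passed with all libraries, and 12 rose without day 9, against 2.51% of all tested genes higher in that fit. Irgm1, an immunity-related GTPase, was at 19.3, 19.0 and 24.9 FPKM in control and 53.7, 21.6 and 71.0 in the set. Day 9 was inside the control range (log2 change without it 1.52, adjusted p = 0.0498). Bst2, the antiviral protein tetherin, was at 14.1, 20 and 18.5 FPKM in control and 52.4, 11.3 and 49.6 in the set (1.5 without day 9, adjusted p = 0.0151). MHC class II genes split further: over 7 genes the median difference from the control mean was 0.83 at day 8, −0.94 at day 9 and 0.51 at day 10, day 9 was the lowest of the 6 libraries in all 7, and none passed in either fit. Cd74, the invariant chain, was at 1049, 882 and 651 FPKM in control and 1622, 383 and 1201 in the set.

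Some genes were lower at day 8 and day 10 but not at day 9. Cyp3a11, a cytochrome P450 of drug metabolism, was at 164, 58.9 and 92.9 FPKM in control and 5.13, 230 and 1.01 in the set. Lct, the brush-border enzyme lactase, was at 138, 50.3 and 48.1 FPKM in control and 3.18, 98.1 and 3.10 in the set. Day 9 was the highest library for Cyp3a11 and inside the control range for Lct. The 30 tested enterocyte markers gave no passing gene with day 9 and 1 that fell without it, against 1.44% of all tested genes. That gene was Lct, which had been picked for this pattern. Tuft cell markers had medians of −0.97, 0.03 and −1.34 at day 8, 9 and 10 over 11 tested genes. Trpm5, the tuft cell cation channel, was at 5.28, 6.84 and 7.97 FPKM in control and 2.34, 6.32 and 1.63 in the set, and did not pass in either fit. None of the 11 passed with all libraries, and 2 fell without day 9, against 1.44% of all tested genes. Alox5, a lipoxygenase of leukotriene synthesis, was at 2.12, 4.42 and 6.35 FPKM in control and 0.277, 1.99 and 0.168 in the set, below control at all 3 days (without day 9, log2 change −2.03, adjusted p = 0.0255). Ltc4s, the leukotriene C4 synthase, was at 14.2, 14.7 and 17.1 FPKM in control and 5.3, 17.3 and 4.44 in the set (−1.48 without day 9, adjusted p = 0.0459). T cell and intraepithelial lymphocyte markers were read beside these. All 12 tested had a negative difference and none passed in either fit. Of 14 such markers in the table, the sum was 99.1 to 159 FPKM in control and 89.9, 125 and 31.9 in the set, and none was at 0 except 1 at day 10. Their part in the other differences of day 8 and day 10 was not tested.

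Within the 6 libraries, day 9 alone stood apart in a handful of genes. It lay at least 2 (log2) above the other 5 libraries in 6 tested genes and below them in 5. By the same rule day 8 stood alone below in 3 genes and day 10 in 2, and each stood alone above in 0. The genes that follow also had a mean log2 of at least 3. S100g, the calcium-binding protein calbindin-D9k, was at 308 to 441 FPKM in control, 229 and 395 at day 8 and 10, and 2297 at day 9. Car2, a carbonic anhydrase, was at 10.9 to 17.4 FPKM in control, 9.66 and 16.0 at day 8 and 10, and 80.4 at day 9. Both were far above the other 5 libraries. In the Bcathet set day 9 was also the highest library for both genes. S100g was at 995 FPKM there, against 514 and 341 at day 8 and 10. Car2 was at 21.0 FPKM there, against 11.4 and 10.3. Eno1b, an enolase copy close to Eno1, was at 64.7 to 111 FPKM in 5 libraries and 0.836 at day 9. The day-9 library of the Bcathet set was low in Eno1b too, at 4.08 FPKM, against 78.7 and 114 at its day 8 and 10, so the low value was not particular to the Cdx2het_Bcathet library. Rbp7, a retinoid-binding protein, was at 24.6, 30.3 and 28.2 FPKM in control and 6.91, 0 and 4.14 in the set, so all 3 mutant libraries were lower and day 9 was listed at 0 (log2 change without day 9 −2.16, adjusted p = 0.0184). Snora44, a small nucleolar RNA, was at 33.7 to 74.4 FPKM in 5 libraries and 6.63 at day 9.

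Among the 76 passing genes the place of day 9 varied. Of the 47 that rose, day 9 was the highest of the 3 mutant libraries in 11 and the lowest in 20, and of the 29 that fell it was the highest in 8 and the lowest in 10. In the 9 leave-one-out fits, 14 of the 76 passed each time. They were Akr1b8, C3, Ccdc3, Gkn3, Gm12191, Hdc, Mdfi, Pla2g5, Serping1 and Slc25a33 among those that rose, and Bckdhb, Pcsk6, Rpl30 and Rpl34 among those that fell. For C3, Hdc, Mdfi and Serping1, which passed the filter on low values only through the set, and Pcsk6, which did so only through the controls, this says nothing about stability. Each of the others lost its call in at least 1 of those fits: Esr1 passed in 5, Igfbp4 and Gsta3 in 4, Sprr2a3 in 6, Hs3st1 in 7, Defa29, Cmah, Adarb2 and Far2 in 5, Krt7 and Lpcat4 in 4, and Marcksl1, Ccl9, Id1, Gch1, Fgfbp1 and Cth in 3. Plaur passed in 5, Tcf19 and Acsm3 in 4, and Ttk in 2.

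No gene passed in the test of the set against the Bcathet set (0%, limma), with 366 of 11845 at an unadjusted p under 0.05 and a smallest adjusted p of 0.103. The 4 genes with the smallest p were 2610528A11Rik, Ghrl, Myl7 and Mir140. Ghrl, the hormone ghrelin, was at 58.3, 59.7 and 56.4 FPKM in the set and 34.5, 30.0 and 28.0 in Bcathet, against 53.8, 63.9 and 48.3 in control. The 2 mutant sets did not overlap, and the set lay within the spread of the controls (difference between sets 0.90 ± 0.11, adjusted p = 0.184). Myl7, a myosin light chain, was at 12.6, 18.6 and 16.3 FPKM in the set, 35.2, 37.1 and 31.2 in Bcathet and 17.6, 17.7 and 14 in control (−1.09 ± 0.15, adjusted p = 0.21). Mir140, listed under a microRNA gene's symbol, was at 0 in all 3 libraries of the set, at 1.77, 1.58 and 3.51 FPKM in Bcathet and at 2.85, 1.67 and 3.07 in control. It passed the filter only through the controls, so its difference from them was given by the filter. Mir140 and Pcsk6 are the 2 passing genes of that kind. Cdx2 was at 126, 131 and 144 FPKM in Bcathet, below the 178 to 196 of the set (0.48 ± 0.10, adjusted p = 0.948).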

How the data were processed

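Poly(A) RNA was sequenced in 9 libraries, per the labels' protocols, and the 6 of the control and Cdx2het_Bcathet groups were compared. The values the authors deposited are FPKM per gene symbol, a unit read from the values. Per the submitters' processing notes, the build was mm9 and the tools were kallisto 0.46.1 and DESeq2 1.40.1, with no role stated for either. The annotation is not given in the sources used here. Reference sequences were of another build (GRCm38.p6) and served for sequence only.

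The design provided for counts or for normalized values. Since the table held FPKM, limma 3.58.1 in R 4.3.3 was used on log2(FPKM + 1), for genes at 1 FPKM or more in 3 or more of the 6 libraries, in a model of group means over all 9 libraries with trend and robust moderation. This pseudocount understates the log2 change of low genes. The Benjamini-Hochberg adjustment ran over all tested genes, with a threshold of 0.05. The fit was also run on simulated data, with independent values and the same spread in every library for a gene. No simulated library lay apart as day 9 of the set did, so the simulation does not bear on that case.

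The members and the 40 gene lists were chosen with earlier results of these data known. Named genes were Ctnnb1, Cdx2, Axin2, Notum, Lgr5, Olfm4, Ly6a, Clu, Lyz1 and Xist, the 12 largest passing rises and falls with a mean log2 of at least 3 and a proper symbol, up to 4 passing members of each list, up to 8 genes each for the 2 patterns of single libraries, and the 4 smallest p between the mutant sets. Any other gene was picked with its values in view. Group labels came from titles, and days gave the replicate numbers. Same-day libraries of control and the Cdx2het_Bcathet set did not deviate together (correlations −0.243, −0.107 and 0.0763), so days were not treated as pairs. The Bcathet libraries were not in that check, and the test between the mutant sets was unpaired too. Whether the 2 mutant sets deviated together by day was not tested, though Eno1b, for one, was low at day 9 in both (0.836 and 4.08 FPKM). The alternatives were another pseudocount (0.1), no filter, a filter at 5 FPKM, the day as a block, library weights, equal totals, only 2 groups, moderation options off, and leaving out each library.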

Additional observations from a re-analysis of the deposited data

Results flagged for a closer look

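2610528A11Rik, an uncharacterised gene, lay below control in every library of the Cdx2het_Bcathet set and above it in every library of the Bcathet set. It was at 2.79, 2.80 and 3.43 FPKM in control, at 1.39, 1.42 and 1.67 in the Cdx2het_Bcathet set and at 3.86, 3.64 and 3.55 in the Bcathet set. The difference between the mutant sets was −0.91 ± 0.10 (SE) on the log2 scale and missed the threshold (adjusted p = 0.103, limma). The fall in the Cdx2het_Bcathet set against control passed, with a log2 change of −0.68 ± 0.10 (adjusted p = 0.0233, limma), and did so in 4 of the 9 fits that left out 1 library.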

How the results depend on the processing

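For Cdx2het_Bcathet against control, the count of 76 passing genes was 79 with a pseudocount of 0.1, 63 with no filter, 75 with a filter at 5 FPKM, and 83 with the moderation options off. Fitting only the 2 groups gave 48. Library weights, which gave the day-9 library of the set 0.323 and its day-8 library 3.99, gave 1992 (1059 higher, 933 lower). Scaling to equal totals moved the median of all genes by 0.0136 and gave 65, split 49 higher and 16 lower, against 47 and 29. The replicate block for day gave 75. Leaving out 1 library gave 20 to 468: the highest count was without the day-9 library of the set and the lowest without its day-10 library. It was 24, 23 and 21 without the controls of day 8, 9 and 10, and 27 without the day-8 library of the set. In the fits that left 2 libraries in a group, the spread was pooled over all groups.

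Between the mutant sets, the count of 0 became 2 with a pseudocount of 0.1, 3 with library weights, 1 with the moderation options off, and 0 to 1 when 1 library was left out. The place of the day-9 library, 24.2% of the way from control to the other 2, was 26.3% with a pseudocount of 0.1, 25.9% with no filter, 23.5% with the filter at 5 FPKM and 21.4% with equal totals. The sign of the difference from control reversed in 6 named genes. With library weights it was −0.20 for S100g and −0.16 for Car2. With 1 library left out it ran from −0.21 to 1.45 for S100g, −0.19 to 1.28 for Car2, −2.59 to 0.37 for Eno1b and −1.42 to 0.0069 for Snora44, in each case reversed without the day-9 library of the set. It ran from −0.013 (without the day-10 control) to 0.18 for Ghrl and from −0.18 to 0.086 (without the day-8 library of the set) for Myl7. None of these 6 passed in any of those fits. Where a count moved, the cause was not tested. The number of libraries and, for genes near 1 FPKM, the fragments behind a value limit the precision.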
